A study of Homo sapiens with 9 samples.

Results

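Among 7629 genes that the deposited count table classes as lincRNA (long intergenic noncoding RNA), 77 were all but silent in p65-knockout cells with an empty vector and were read in cells given p65. They were chosen from the counts themselves: at most 6 reads over the 3 vector libraries together, and at least 30 reads over the 6 libraries with either form of p65. The low vector level and the higher p65 level are therefore descriptions, and no test is given for them. The rule also used the reads of both p65 forms, as a sum, so counts and medians over the 77 between the forms are descriptions of the RNAs that passed, given beside the test of each RNA. The levels of the genes beside the 77 were not used in choosing them and are tested. Where such a gene overlaps or adjoins an RNA, reads of the gene may have entered the count of the RNA.

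The cells were HEK293A, a subclone of the human line HEK293 (from embryonic kidney) that grows flat, and p65 had been knocked out in them. They were transfected with p65 WT, with p65 2CS or with empty vector, and 24 h later were given TNFα at 20 ng/mL for 2 h. Each of the 3 groups has 3 libraries: vector replicates 1 to 3, p65 WT replicates 4 to 6 and p65 2CS replicates 7 to 9. The knockout and the TNFα treatment are shared by all 9 libraries, so neither is compared here. What 2CS stands for is not in the labels, nor whether the knockout is 1 clone or the 3 libraries of a group are separate cultures. The p-values then measure only the spread between libraries, which may be technical.

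p65 is the RELA-encoded subunit of NF-kB, a dimeric transcription factor that inhibitor proteins hold in the cytoplasm until a signal such as TNFα frees it to enter the nucleus and bind short DNA sites. Many of its targets are feedback inhibitors that end the response. Long intergenic noncoding RNAs are transcripts without a known protein product that lie between protein-coding genes. Many are found at low levels and in few cell types, and for most of those below no function is established.

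RELA itself had 67.7 ± 1.51 CPM (library-scaled counts, on the usual CPM scale, mean ± SD, n = 3) with vector, against 8984 ± 940 with p65 WT and 25481 ± 1367 with p65 2CS. Its transcript was thus more abundant with p65 2CS than with p65 WT, by 1.5 ± 0.04 on the log2 scale (± standard error, edgeR adjusted p = 3.5e-34). Protein was not measured, and the counts cannot separate plasmid from genomic transcripts. Library totals were 17923114 to 20162267 counts in the vector group, 15989601 to 16507689 in the p65 WT group and 17146134 to 25068515 in the p65 2CS group. Markers of embryonic kidney summed to 1643 to 1651 CPM with vector, 1611 to 1663 in p65 WT libraries and 1406 to 1443 in p65 2CS libraries, and CDH6 was the only one of the 13 without a vector read. Of 12 tested, 3 were higher with p65 WT than with vector (PAX8 from 0.139 to 4.27 CPM, SIX2 from 9.57 to 39.6, SALL1 from 9.23 to 15.1) and 4 lower. Markers of leukocytes (8 genes) summed to 4.16 to 6.72 CPM over all 9 libraries, with PTPRC and CD3E at 0 with vector, and of 4 tested only ITGAM was higher with p65 WT (0.421 to 2.23 CPM). Those of fibroblasts (7 genes) summed to 69.7 to 90.1 CPM. The 7 endothelial markers summed to 8.60 to 9.31 CPM with vector, 50.1 to 61.2 in p65 WT libraries and 12.4 to 15.4 in p65 2CS libraries, an order that the 77 RNAs share. CDH5, VWF and CLDN5 were the 3 of 7 called higher with p65 WT, while PECAM1 had 7, 3 and 1 counts over the vector, p65 WT and p65 2CS groups and EMCN 0, 1 and 0. The part of such cells in the result was not tested.

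The sequences below are annotated start regions matched to some of these RNAs, and no start was measured. Of the 77, 32 could be matched to RefSeq promoters on GRCh38.p14, each reaching from 250 bases before a start to 50 after it. The most abundant RNA, AC092666.1, had no entry. Its first 200 bases are given from the longest of its 3 GENCODE 29 transcripts, which is 698 bases long, with no motif marked. For the others, capitals mark the TATAAA motif or the NF-kB consensus motif, both searched on either strand. AL356234.2 and LINC02528 are shown because they lie on either side of TNFAIP3, LINC01336 and AC021218.1 because they hold an NF-kB match, and LINC01108 because it holds TATAAA 54 bases before its start.
AC092666.1, first 200 bases of the transcript: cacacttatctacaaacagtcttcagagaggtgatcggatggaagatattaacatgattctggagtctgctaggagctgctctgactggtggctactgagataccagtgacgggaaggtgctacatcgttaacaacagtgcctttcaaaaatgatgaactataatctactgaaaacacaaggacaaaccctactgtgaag
AL356234.2, chr6:137665396-137665695, plus strand: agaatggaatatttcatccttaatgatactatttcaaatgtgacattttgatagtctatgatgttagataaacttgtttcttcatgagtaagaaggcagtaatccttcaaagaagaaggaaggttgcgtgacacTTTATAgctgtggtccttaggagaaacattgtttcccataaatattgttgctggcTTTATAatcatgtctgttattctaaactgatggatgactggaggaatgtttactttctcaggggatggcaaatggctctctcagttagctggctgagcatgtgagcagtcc
LINC02528, chr6:137945098-137945397, plus strand: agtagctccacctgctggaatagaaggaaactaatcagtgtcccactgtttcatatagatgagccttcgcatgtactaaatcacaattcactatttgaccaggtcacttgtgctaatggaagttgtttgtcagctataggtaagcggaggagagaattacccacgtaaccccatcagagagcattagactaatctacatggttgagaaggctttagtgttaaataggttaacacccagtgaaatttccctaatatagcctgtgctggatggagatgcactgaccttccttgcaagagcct
LINC01336, chr5:75052509-75052808, minus strand: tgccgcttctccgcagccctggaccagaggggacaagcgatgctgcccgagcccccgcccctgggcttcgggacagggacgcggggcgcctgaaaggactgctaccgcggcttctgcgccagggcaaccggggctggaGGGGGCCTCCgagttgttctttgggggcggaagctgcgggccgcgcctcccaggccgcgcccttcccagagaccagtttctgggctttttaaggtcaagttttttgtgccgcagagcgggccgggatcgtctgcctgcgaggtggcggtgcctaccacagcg
AC021218.1, chr7:155962307-155962606, plus strand: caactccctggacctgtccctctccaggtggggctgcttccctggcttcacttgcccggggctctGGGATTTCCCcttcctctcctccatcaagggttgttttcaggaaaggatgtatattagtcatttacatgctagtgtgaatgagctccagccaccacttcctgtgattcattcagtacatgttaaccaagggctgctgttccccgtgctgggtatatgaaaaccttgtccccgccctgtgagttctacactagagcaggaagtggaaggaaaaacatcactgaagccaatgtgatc
LINC01108, chr6:14285405-14285704, minus strand: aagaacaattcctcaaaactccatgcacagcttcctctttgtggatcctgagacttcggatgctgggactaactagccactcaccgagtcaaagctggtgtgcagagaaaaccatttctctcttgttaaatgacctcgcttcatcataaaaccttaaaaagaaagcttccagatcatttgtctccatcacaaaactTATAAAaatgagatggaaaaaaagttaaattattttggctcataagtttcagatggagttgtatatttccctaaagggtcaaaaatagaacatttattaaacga
The AL356234.2 window starts at the RefSeq gene LINC03004, 7648 bases inside the gene as the counts define it, and its capitals are TATAAA read on the opposite strand, 116 and 61 bases before the start. RefSeq holds LINC01336 as a synonym of the protein-coding gene GCNT4, and the window shown is that gene's, with a start 285 bases from that of LINC01336.

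The NF-kB consensus motif was found in these windows at a share close to that of all promoters. It was found in 4 of the 32 windows nearest to a start (12.5%), against 3956 of 35116 RefSeq promoters (11.3%) and 8.86% of those of long noncoding RNAs. The 4 were AC239803.1 (81 bases before the start, on the opposite strand), LINC01336 (112 before), LINC01646 (20 after) and AC021218.1 (185 before), the last with the letters GGGATTTCCC. TATAAA was found in 6 of 32 (18.8%), against 11.5% of all promoters and 15.1% of those of long noncoding RNAs. The RefSeq start lay within 250 bases of the counted gene's start for 19 of the 32 windows and up to 48453 bases away for the rest. Among these 19, 2 held the NF-kB motif and 2 held TATAAA (10.5% each). No match says only that these letters are not in this window, and 45 of the 77 RNAs had no window.

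The 77 RNAs as a whole were read at a high level with p65 WT, at an intermediate level with p65 2CS and hardly at all with vector. Summed over all of them, the counts were 63, 34 and 50 in the vector libraries, 3303, 2796 and 3503 with p65 WT, and 332, 439 and 272 with p65 2CS. Scaled to library size this came to 1.66 to 3.37 CPM with vector, against 177 to 216 in p65 WT libraries and 14.3 to 19.3 in p65 2CS libraries. The p65 WT libraries lay apart from the p65 2CS libraries, and the low vector level is set by the rule. In bulk RNA, fewer cells that express a gene and less RNA per cell cannot be told apart.

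**Figure D1:**
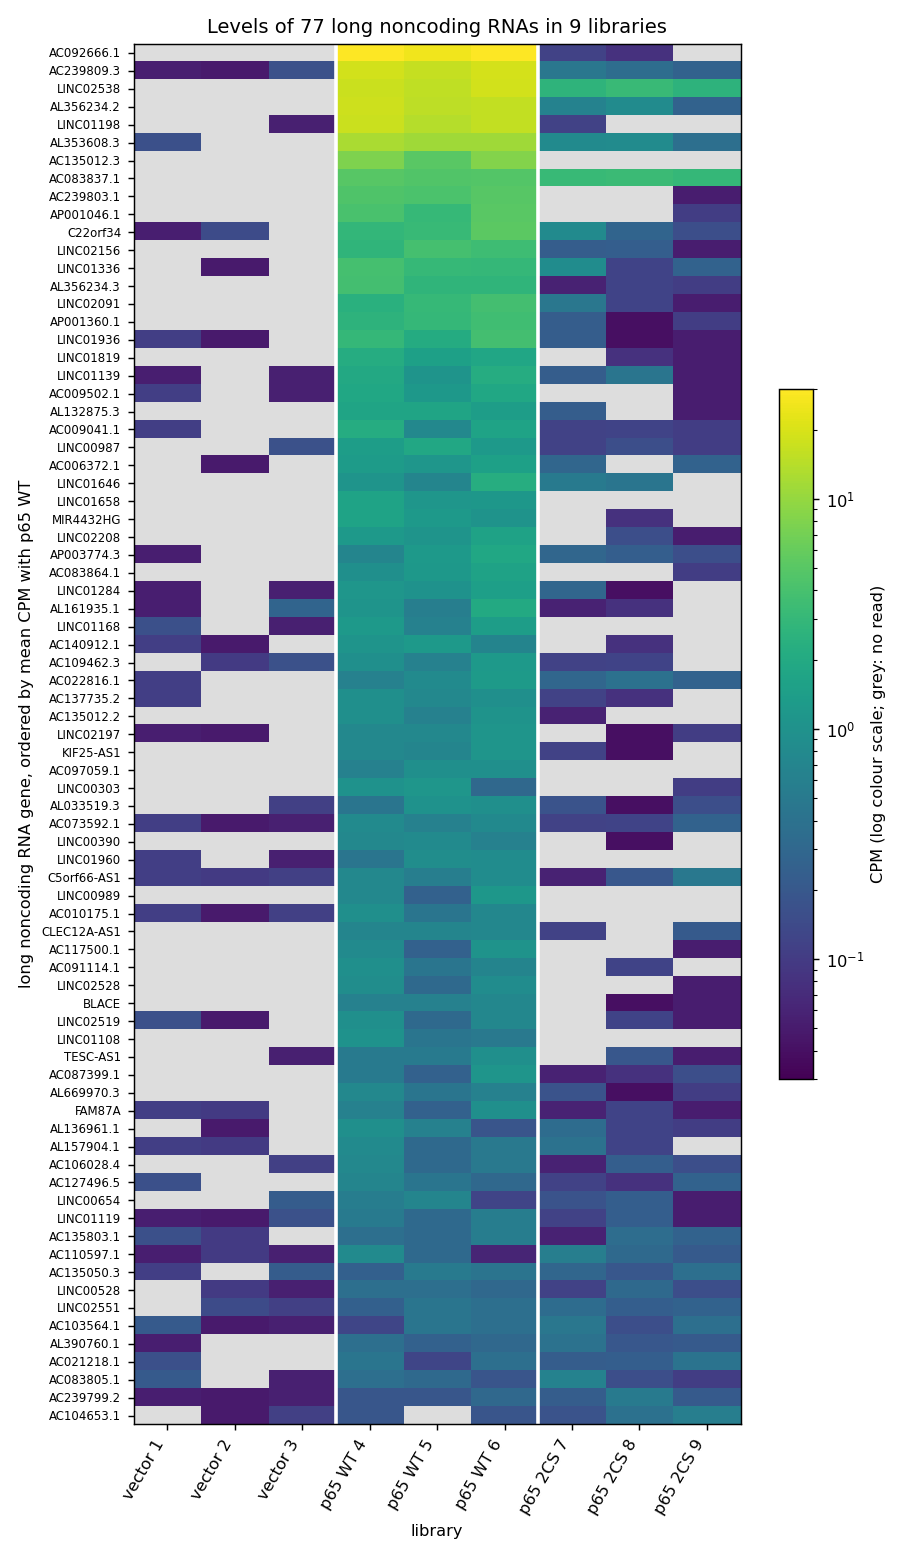
Level of each of the 77 long noncoding RNAs (rows, ordered by mean CPM with p65 WT) in each of the 9 libraries (columns), as CPM on a log colour scale with grey for no read. Vector libraries are mostly grey, with 32, 23 and 26 RNAs read, while 77, 76 and 77 were read with p65 WT and 52, 57 and 55 with p65 2CS.

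A typical one of these RNAs stayed at a low level even with p65 WT. The median over the 77 was 0.0185 CPM with vector (0 to 0.11), 0.875 with p65 WT (0.125 to 28.9) and 0.109 with p65 2CS (0 to 3.15). On the scale that allows genes to be compared, CPM per kb of gene length, the median was 0.834 for p65 WT and 0.0638 for p65 2CS. With vector, 32 RNAs had no read, 26 had 1 to 3 and 19 had 4 to 6. A group without any read can hide up to 3 counts, which is 0.0524 CPM with vector, then 0.0626 with p65 WT and 0.0488 with p65 2CS. A fold over such a group is therefore written as "at least". Such floors, and the exact 95% counting intervals, cover counting error only: without molecular identifiers, reads are not independent molecules. A few RNAs carried much of the signal: the 5 with the most reads held 4598 of the 9602 counts with p65 WT (47.9%).

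AC092666.1, a gene of chromosome 7 (150040521 to 150076655, plus strand, GRCh38) that AC092666.2 overlaps on the other strand, was the most abundant of them. It had no read in any vector library, 465, 412 and 508 counts with p65 WT, and 2, 2 and 0 with p65 2CS. All p65 WT libraries lay far above the p65 2CS libraries, and the low vector level is set by the rule. Its level with p65 WT was 28.9 ± 2.66 CPM, or 20.9 CPM per kb, and at least 551-fold the vector level. With p65 2CS it had 0.0652 CPM, lower than with p65 WT by 8.65 ± 0.25 on the log2 scale (edgeR adjusted p = 1.1e-29).

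LINC01198 on chromosome 13 (46455132 to 46515958, minus strand) showed the same contrast. Its counts were 0, 0 and 1 with vector, 274, 221 and 258 with p65 WT, and 2, 0 and 0 with p65 2CS. The p65 WT libraries stood apart from those with p65 2CS, which overlapped the vector libraries. The ratio of p65 WT to p65 2CS was 483 with a counting interval of 133 to 3992. The log2 difference of -8.64 ± 0.35, p65 2CS minus p65 WT, passed the test (edgeR adjusted p = 3.5e-25). LINC01198 overlaps AL138686.2 on the same strand and 4 genes on the other, so its reads cannot be assigned with certainty.

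AC135012.3 and AC135012.2, neighbours on the minus strand of chromosome 16, were close to absent with p65 2CS. AC135012.3 had no read with vector or p65 2CS and 125, 80 and 135 counts with p65 WT, at least 145-fold higher than with p65 2CS. AC135012.2 had no vector read, 15, 10 and 17 counts with p65 WT, and 1, 0 and 0 with p65 2CS. Only p65 WT libraries held more than a single read of either RNA. Both were lower with p65 2CS (edgeR adjusted p = 2.6e-18 and 9.6e-06).

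LINC02538 on chromosome 6 (167666840 to 167679270, minus strand) kept more of its level with p65 2CS. It had no vector read, 272, 245 and 301 counts with p65 WT, and 46, 82 and 49 with p65 2CS. The p65 WT and p65 2CS libraries did not overlap, and the low vector level is set by the rule. Its level of 17.1 ± 1.54 CPM with p65 WT compared with 2.84 ± 0.365 with p65 2CS, a log2 difference of -2.57 ± 0.15 (edgeR adjusted p = 1.2e-18). LINC02487 ends within 10 kb upstream on the same strand, so transcription running on from it cannot be told apart from a start of its own.

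AL353608.3, on chromosome 9, and AC239809.3, on chromosome 1, lie among multicopy gene families, and their counts are uncertain where reads fit near-identical copies. AL353608.3 had 3, 0 and 0 counts with vector, 200, 175 and 183 with p65 WT, and 14, 21 and 7 with p65 2CS. It shares its strand and part of its span with PGM5 and AL353608.1, and it was lower with p65 2CS by 4.08 ± 0.24 log2 units (edgeR adjusted p = 4.6e-19). AC239809.3 had 1, 1 and 3 counts with vector, 297, 257 and 310 with p65 WT, and 8, 9 and 5 with p65 2CS. It was lower with p65 2CS by 5.63 ± 0.21 log2 units (edgeR adjusted p = 4.6e-26). AC239803.1 runs the other way inside its span, with no vector read, 72, 67 and 81 counts with p65 WT, and 0, 0 and 1 with p65 2CS. Since the strand setting of the counting is not given in the sources used here, reads of both cannot be told apart.

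**Figure D2:**
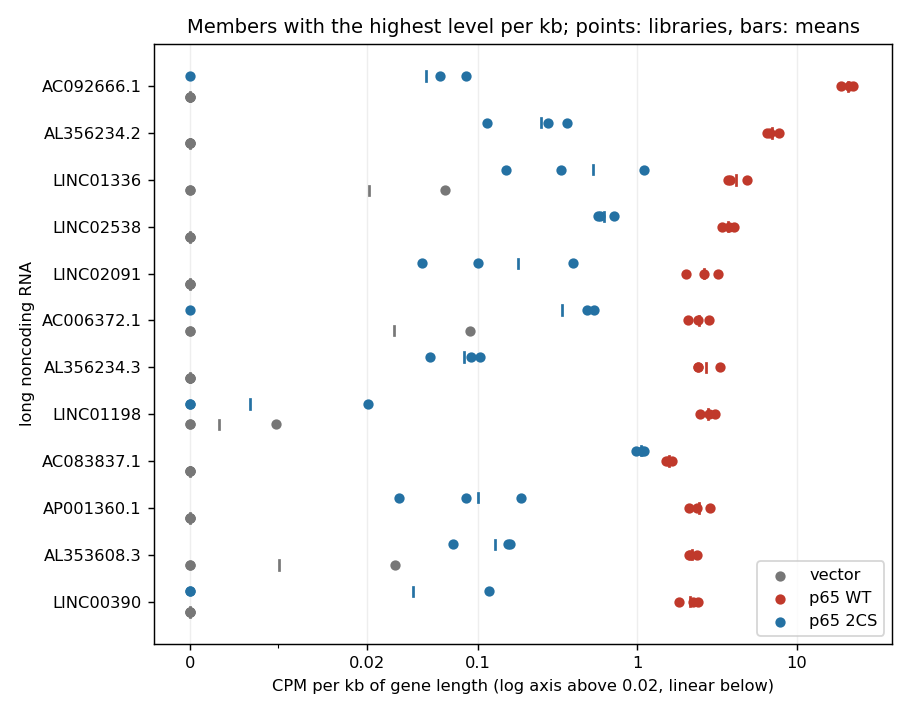
The 12 RNAs with the highest mean CPM per kb over the 6 p65 libraries, with a point per library and a bar at each group mean (horizontal axis in CPM per kb, log above 0.02 and linear below, to show 0). The p65 WT points lie to the right of every other point of the same RNA, with the smallest gap for AC083837.1.

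Of the 12 RNAs with the highest levels per kb, 5 more were higher with p65 WT than with p65 2CS. LINC01336 had 62, 48 and 48 counts with p65 WT against 15, 3 and 5 with p65 2CS, with a single vector read. LINC02091 had 38, 49 and 62 against 8, 3 and 1, and AP001360.1 had 42, 47 and 58 against 4, 1 and 2, both without a vector read. AC006372.1 had 21, 18 and 25 counts with p65 WT, and 5, 0 and 5 with p65 2CS. LINC00390, without a vector read, had 12, 13 and 10 counts with p65 WT and 0, 1 and 0 with p65 2CS. In each of these 5, all p65 WT libraries lay above all p65 2CS libraries, and edgeR adjusted p ran from 3.6e-11 for AP001360.1 to 0.00012 for AC006372.1.

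AC083837.1 differed least between both forms among the RNAs called lower. It had no vector read, 79, 72 and 76 counts with p65 WT, and 55, 83 and 56 with p65 2CS. Scaled to library size these were 4.74 ± 0.215 and 3.15 ± 0.177 CPM, and the p65 2CS libraries lay below those with p65 WT. The log2 difference was -0.59 ± 0.20 (edgeR adjusted p = 0.02), and adjusted p was 0.07 without p65 WT replicate 4, 0.05 without replicate 6 and 0.068 without p65 2CS replicate 9. Its level with p65 2CS was the highest of the 77, at least 60.3-fold the vector level. AC083837.1 overlaps AC083837.2 on the same strand, so its reads cannot be assigned with certainty.

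The rule shapes the split between the forms over the 77 RNAs, so it is given as a description. An RNA with few p65 WT reads could reach 30 reads only with the help of p65 2CS reads. With p65 WT alone 58 RNAs reached 30, and all 58 were called lower with p65 2CS, against 2 of the other 19. With p65 2CS alone 4 RNAs reached 30. In all, 60 of the 77 were lower with p65 2CS than with p65 WT and none was higher (edgeR adjusted p under 0.05), against 15.7% lower and 11.3% higher among the 21300 genes tested. The count higher was also 0 at an unadjusted p under 0.05, by DESeq2 and by limma voom. In 63 of the 77, all 3 p65 2CS libraries lay below all 3 p65 WT libraries, against 20.2% of genes tested. The log2 difference had a median of -3.62, also with the 8 RNAs that lack a p65 2CS read set at their floor, against 0.00 over all genes tested. The pooled level with p65 2CS was a median of 0.0748 of that with p65 WT, with quartiles of 0.026 and 0.300.

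**Figure D3:**
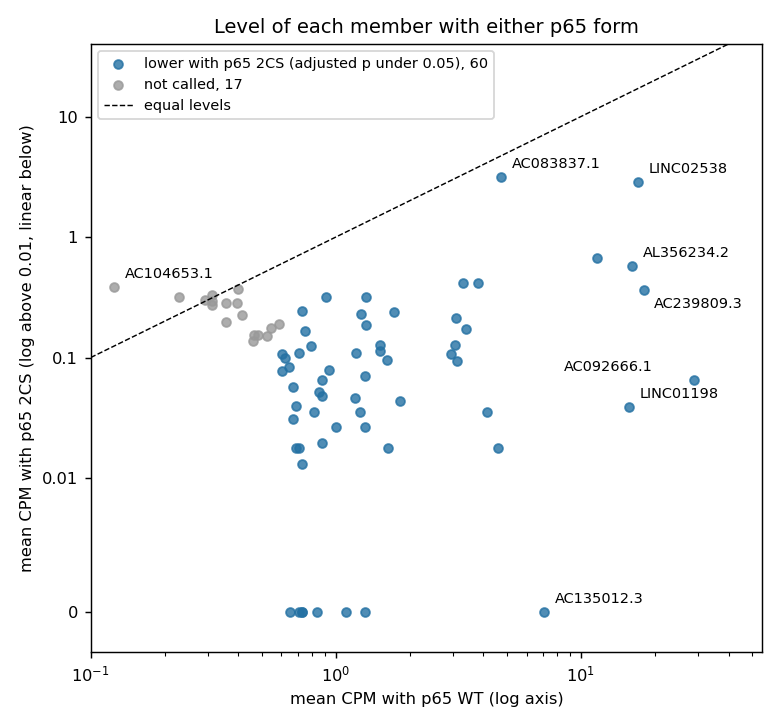
Mean CPM of each of the 77 RNAs with p65 WT (horizontal, log axis) and with p65 2CS (vertical, log above 0.01, linear below), blue where edgeR called the RNA lower with p65 2CS and grey where it did not. The 60 blue points lie below the line of equal levels at 0.603 to 28.9 CPM with p65 WT, and the 17 grey points at 0.125 to 0.587 CPM.

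The 254 protein-coding genes that met the same thresholds behaved alike in count, with 199 lower (78.3%), 2 higher and a median of -3.12. Of the other 1298 lincRNA genes tested, 84 were lower (6.47%) and 33 higher (2.54%). Nothing particular to noncoding RNAs is read from the count of 60.

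The 17 RNAs that were not called had 6 to 28 p65 WT counts in all. AC110597.1 had 13, 5 and 1 counts with p65 WT and 10, 8 and 4 with p65 2CS, a log2 difference of -0.13 ± 0.64 (edgeR adjusted p = 0.92). AL136961.1 had 15, 10 and 3 against 6, 3 and 2, and AL157904.1 had 13, 5 and 8 against 7, 3 and 0. Their log2 differences were -1.65 and -1.67, with edgeR adjusted p of 0.066 and 0.081, and both were called in some alternative fits: AL136961.1 without p65 WT replicate 6 (0.024) or p65 2CS replicate 7 (0.036), AL157904.1 without p65 2CS replicate 7 (0.017) and with limma voom (0.027). AC135050.3 had 4, 8 and 7 against 5, 5 and 7. Libraries of both forms overlapped in all 4, and 5 of the 17 were lower at an unadjusted p under 0.05. Only AC104653.1 and AC239799.2 had a higher pooled level with p65 2CS, with log2 differences of 1.58 ± 0.79 and 0.52 ± 0.67 (edgeR adjusted p = 0.15 and 0.64). A p above the threshold does not show that these RNAs were equal with both forms.

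At the edges of the rule, AC104653.1 and LINC00528 (30 p65 reads each) and AC083805.1 (31) were just inside, and AC007220.1, AC012307.1 and AC068594.1 (29 each) just outside. At the vector threshold, AL161935.1, C5orf66-AS1 and AC135050.3 had 6 vector reads, and AL353708.1, AL138920.1 and AC005180.1 had 7.

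In gene structure the 77 RNAs stood apart from the other lincRNA genes tested by fewer single-exon genes and wider gaps to coding genes, as a description with no test. A single exon was annotated for 8 of 77 (10.4%), against 386 of 1298 other lincRNA genes tested (29.7%) and 815 of 6254 not tested (13.0%). Their median gene length was 1884 bases, against 1566 and 694. The median gap to the nearest protein-coding gene was 31.6 kb, against 3.22 and 52.2 kb. Longer genes gather more reads at the same level. Chromosomes 1 and 6 held 9 each, and chromosomes 2 and 12 held 8 each.

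Many of the genes overlap others, which limits what their counts can assign. Another gene overlapped on the same strand for 15 of the 77 and on the opposite strand for 26, while 45 overlapped none. For 14, a gene ends within 10 kb upstream on the same strand, and 34 neither overlap a gene nor follow one. LINC00987 and AC010175.1 share a strand and most of their span on chromosome 12. LINC00987 had 22, 30 and 20 counts with p65 WT and 2, 4 and 2 with p65 2CS. AC010175.1 had 15, 7 and 12 with p65 WT and no p65 2CS read, and both were lower (edgeR adjusted p = 4.1e-06 and 8e-06).

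Of the protein-coding genes beside the 77 RNAs that could be tested, 30.8% were higher with p65 WT, with the smallest adjusted p for TNFAIP3, CFAP46 and CD83. Of 144 such neighbours 117 were tested, and 36 were higher with p65 WT than with vector (30.8%) and 19 lower (16.2%), against 14.7% and 11.0% of all genes tested. With libraries scaled by their totals alone, 35 neighbours were higher and 24 lower, and the split over all genes tested moved from 3127 higher and 2335 lower to 2777 and 3592. Among neighbours of the other lincRNA genes tested, 287 of 1767 were higher (16.2%) and 324 lower (18.3%). The difference between these shares was not tested. The median change of the neighbours was 0.05 on the log2 scale, so most moved little. With p65 2CS against vector, 22 were higher (18.8%) and 20 lower (17.1%), against 9.91% and 9.75% of all genes. The shares were 12.4% and 12.3% among protein-coding genes tested. Among neighbours of the other lincRNA genes tested they were 13.5% and 16.2%, so the share lower was close to theirs. With p65 2CS against p65 WT, 11 were higher (9.4%) and 40 lower (34.2%), against 11.3% and 15.7% of all genes and 17.1% and 19.5% of the neighbours of the other lincRNA genes tested. Of the 77 RNAs, 35 lay beside a neighbour that was higher with p65 WT, and 16 of these within 100 kb by gene start. An RNA can have a neighbour on either side, and RNAs that share a neighbour, as by TNFAIP3, are each counted. The like share among the other lincRNA genes was not computed, so nothing is read from the 35. The p65 WT libraries are shared by the first and last of these comparisons, and the vector libraries by the first and second.

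**Figure D4:**
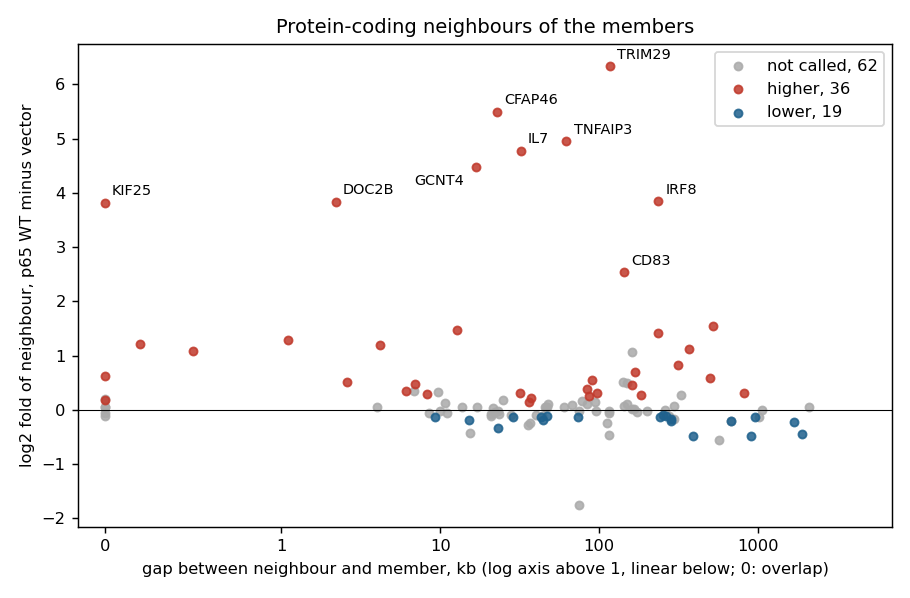
Log2 fold of each of the 117 tested neighbours, p65 WT minus vector (vertical), against its gap to the long noncoding RNA (horizontal, kb, log above 1, linear below, 0 for overlap). The 36 genes called higher (red) reach 6.34 for TRIM29, and the 19 called lower (blue) lie between -0.49 and -0.10.

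Among the neighbours that rose, the smallest adjusted p was that of TNFAIP3, which encodes A20, a ubiquitin-editing feedback inhibitor of NF-kB. TNFAIP3 had 7.37, 7.53 and 6.04 CPM with vector, then 222, 214 and 214 with p65 WT, and 49.9, 51.1 and 44.7 with p65 2CS. The groups did not overlap. It rose by 4.95 ± 0.06 log2 units with p65 WT against vector (edgeR adjusted p = 5e-46), and by 2.80 with p65 2CS (adjusted p = 2.6e-32), and was lower with p65 2CS than with p65 WT by 2.15 (adjusted p = 1e-36).

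Of the 77 RNAs, 3 lie within 166.8 kb of TNFAIP3 on its own strand. AL356234.2 ends 103.2 kb before it and had no vector read, 285, 238 and 255 counts with p65 WT, and 11, 21 and 5 with p65 2CS. AL356234.3, inside the span of AL356234.2 on the same strand, had none with vector, then 61, 44 and 45, and 1, 3 and 2. LINC02528 begins 62.1 kb past the other end and had none with vector, then 14, 5 and 14, and 0, 0 and 1. All 3 were lower with p65 2CS, by 4.74 ± 0.22, 4.91 ± 0.46 and 4.91 ± 0.97 log2 units (edgeR adjusted p = 2.1e-22, 6.9e-12 and 9e-05). Because the first of these share a strand, reads of AL356234.3 cannot be told apart from those of introns or exons of AL356234.2.

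**Figure D5:**
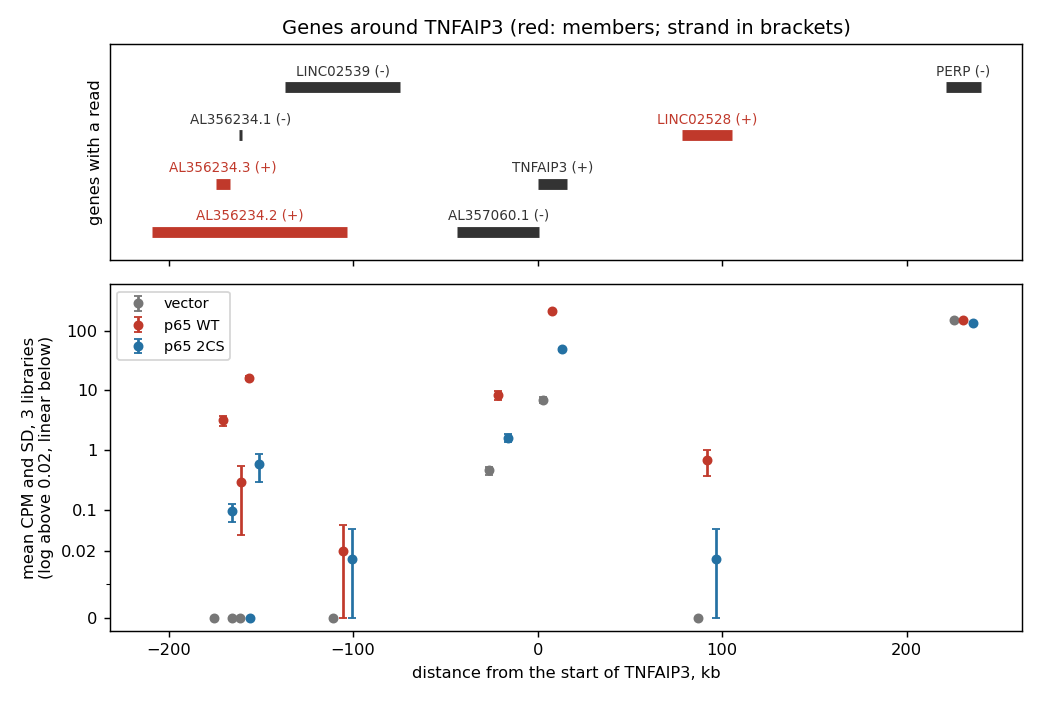
Genes with a read around TNFAIP3 (top, by distance from its start in kb, the 3 long noncoding RNAs in red, strand in brackets) and their mean CPM with SD over 3 libraries (bottom, log above 0.02, linear below). TNFAIP3, AL357060.1 and the 3 RNAs are highest with p65 WT, while PERP stands at 151 CPM with vector and 149 with p65 WT.

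Other genes of the region split. AL357060.1, an antisense gene whose span runs into TNFAIP3 and which is not among the 77, went from 0.454 ± 0.0742 CPM with vector to 8.24 ± 1.37 with p65 WT, against 1.61 ± 0.257 with p65 2CS. Without the strand setting, its reads cannot be told apart from those of TNFAIP3 where both overlap. PERP, 221.3 kb from the start of TNFAIP3 and a membrane protein gene of the p53 response, was not called with p65 WT (151 CPM with vector, then 149 with p65 WT, log2 -0.02). LINC02539, which overlaps AL356234.2 on the other strand, had 1 read with p65 WT and 1 with p65 2CS.

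Next to TNFAIP3, the neighbours that rose with the smallest adjusted p were of varied function. CFAP46, a gene of the ciliary axoneme that lies 22.7 kb from LINC01168, had 3.10, 2.74 and 2.11 CPM with vector, then 128, 111 and 124 with p65 WT, and 12.1, 12.8 and 11.5 with p65 2CS. Its groups did not overlap (5.5 ± 0.09 log2 units, p65 WT minus vector, edgeR adjusted p = 2.4e-41). LINC01168 itself had 3, 0 and 1 counts with vector, 20, 10 and 23 with p65 WT and none with p65 2CS.

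CD83, a surface marker of mature dendritic cells and 143.2 kb from LINC01108, had 19.7, 17.1 and 17.4 CPM with vector, then 105, 102 and 107 with p65 WT and 42.6, 42.0 and 41.2 with p65 2CS. The 3 groups were apart (2.54 ± 0.06 log2 units, p65 WT minus vector, edgeR adjusted p = 2.1e-35). LINC01108 was read with p65 WT alone, at 16, 7 and 8 counts, at least 13.2-fold the p65 2CS level. TRIM29, a ubiquitin ligase of the tripartite motif family lying 116.2 kb from AP001360.1, had 0.107, 0.293 and 0.111 CPM with vector, then 15.2, 12.6 and 16.1 with p65 WT and 0.929, 0.952 and 0.316 with p65 2CS. It was the tested neighbour with the largest change (6.34 ± 0.29 log2 units, edgeR adjusted p = 1.8e-23).

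The remaining neighbours named by the rule lie closer. DOC2B, a calcium sensor of vesicle release, lies 2.2 kb from LINC02091 on the same strand and went from 0.604 ± 0.255 CPM with vector to 8.63 ± 1.13 with p65 WT, against 2.01 ± 0.480 with p65 2CS. PTGFRN, a tetraspanin partner 0.5 kb from AL157904.1 on the other strand, went from 104 ± 2.37 to 221 ± 4.07 and 112 ± 2.64 CPM. NINJ1, which acts in plasma membrane rupture, lies 12.8 kb from AL390760.1 and went from 60.5 ± 1.44 to 169 ± 7.11 and 90.9 ± 1.96 CPM. STX4, a syntaxin of membrane fusion, ends 0.2 kb before AC135050.3 on the same strand and went from 26.0 ± 1.44 to 60.4 ± 2.89 and 35.9 ± 1.20 CPM. All 4 rose with p65 WT against vector (edgeR adjusted p between 3.6e-32 for NINJ1 and 9.3e-18 for DOC2B). Between both p65 forms, NINJ1, STX4 and PTGFRN were lower with p65 2CS by 0.89, 0.75 and 0.98 log2 units (edgeR adjusted p = 3.4e-24, 1.1e-14 and 8.6e-28). The RNAs beside them, AL390760.1, AC135050.3 and AL157904.1, had log2 differences of -0.24 ± 0.68, -0.49 ± 0.65 and -1.67 ± 0.72 and were not called. Whether gene and RNA differ in this was not tested. For AC135050.3, transcription running on from STX4 cannot be told apart from a start of its own.

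The neighbours IL7, IRF8, GCNT4 and KIF25 were singled out after their values were seen. IL7, a lymphocyte growth factor 32.0 kb from AC083837.1, was the only neighbour that itself met the thresholds, with 0.0739 ± 0.128 CPM with vector, then 2.11 ± 0.272 with p65 WT and 1.81 ± 0.466 with p65 2CS. All 4 vector reads of IL7 came from replicate 3. Its change between both forms was -0.21 ± 0.30 on the log2 scale (edgeR adjusted p = 0.68), and AC083837.1 beside it was the called RNA with the smallest change. IRF8, a transcription factor of myeloid cells at 235.6 kb from AC135012.2, went from 0.310 ± 0.125 to 4.61 ± 0.924 and 1.22 ± 0.524 CPM. GCNT4, a glycosyltransferase of O-glycan branching 16.8 kb from LINC01336 on the same strand, went from 0.243 ± 0.0439 to 5.61 ± 1.05 and 2.12 ± 1.00 CPM. Given the shared RefSeq name, reads of LINC01336 and GCNT4 may belong to 1 gene and cannot be told apart. KIF25, a kinesin gene that KIF25-AS1 overlaps on the other strand, went from 0.274 ± 0.147 to 4.03 ± 0.692 and 0.512 ± 0.313 CPM, and KIF25-AS1 had no vector read, 12, 11 and 18 counts with p65 WT and 2, 1 and 0 with p65 2CS.

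The 5 most abundant RNAs lay beside coding genes with changes of very different size. TNFAIP3, described above, lies beside AL356234.2. The others given here were chosen after their values were seen. ATP6V0E2, a subunit of the vacuolar proton pump 149.3 kb from AC092666.1, stood at 66.6 ± 2.62 CPM with vector and 72.0 ± 2.58 with p65 WT (edgeR adjusted p = 0.07). On the other side of AC092666.1, ACTR3C, a gene related to actin-related protein 3, was higher with p65 WT by 0.70 ± 0.22 log2 units (adjusted p = 0.014). NBPF11, of a multicopy family and 6.9 kb from AC239809.3, was higher by 0.47 ± 0.08 (adjusted p = 9e-06). AFDN, a junction adaptor 147.7 kb from LINC02538, stood at 177 ± 10.4 and 167 ± 6.95 CPM (adjusted p = 0.09). LRCH1, 37.2 kb from LINC01198, was 0.22 ± 0.08 log2 units higher with p65 WT (adjusted p = 0.033), and RUBCNL on its other side was not called (0.05 ± 0.40).

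Neighbours that fell with p65 WT fell by little. LBH, a developmental regulator near LINC01936, fell by 0.34 ± 0.04 on the log2 scale (edgeR adjusted p = 1.4e-09), from 148 to 117 CPM. SEMA6A, an axon guidance gene 1893.2 kb from LINC02208, fell by 0.44 ± 0.06. CHRM3, a muscarinic receptor gene 900.5 kb from LINC01139, fell by 0.48 ± 0.09. IRX5, a homeobox gene 387.1 kb from AC109462.3, fell by 0.49 ± 0.12. MCFD2, BAIAP2, BDP1 and RPL38 fell by 0.10 to 0.18. DESeq2 called 9 of the 117 lower and the fit without a filter on low counts 10, in place of 19. Leaving out each library in turn gave 9 to 20, with 11 without vector replicate 1 or 2, 12 without vector replicate 3 and 9 without p65 WT replicate 6.

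Other genes of the NF-kB pathway also rose with p65 WT, from levels that were not silent. Of the 13 feedback inhibitors and 4 subunits listed, 16 were tested, and 15 were higher with p65 WT than with vector (93.8%, against 14.7% of all genes tested) and none lower (edgeR, also none lower at an unadjusted p under 0.05 or by DESeq2), with a median of 1.49 log2 units against -0.02 over all genes tested. NFKBIA, the inhibitor that holds NF-kB in the cytoplasm, went from 36.4 CPM with vector to 316 with p65 WT, against 110 with p65 2CS. NFKB2, the p100 subunit gene, went from 49.4 to 364 and 113 CPM. TNIP2 was the exception (47.2 and 50.3 CPM with vector and p65 WT). Between both forms 13 of the 16 were lower with p65 2CS (81.2%, against 15.7% of all genes tested) and none higher, with a median of -0.77 log2 units. The 3 not called were NFKBIB, TNIP2 and REL. The median of -3.62 for the 77 RNAs is not a like measure. They were chosen for few vector reads, as were the 254 protein-coding genes with a median of -3.12, and these listed genes were not.

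Noncoding RNAs that the literature ties to NF-kB did not include any of the 77. Of 12 listed, 8 were tested, and none was higher with p65 WT than with vector by edgeR or DESeq2, with 1 higher at an unadjusted p under 0.05. NEAT1, the scaffold of paraspeckles, MALAT1, a nuclear speckle RNA, and the microRNA host genes MIR17HG and MIR222HG were lower, by 0.14 to 0.56 log2 units. NKILA, an RNA described as binding the NF-kB complex, stood at 3.25 CPM with vector, then 2.79 with p65 WT, where it was not called, and 2.21 with p65 2CS, lower than with vector by 0.55 ± 0.20 log2 units (edgeR adjusted p = 0.048). MIR155HG, MIR3142HG, PACERR and THRIL had too few reads to test, and THRIL had none in any library.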

How the data were processed

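RNA was sequenced from 9 libraries, 3 each with vector, p65 WT and p65 2CS. Per the labels' protocols, RNA was taken with the RNeasy Mini kit, poly-A RNA was captured on poly-T beads and copied from random hexamers, in a directional or non-directional library without saying which. The aligner was HISAT2 2.0.5, per the submitters' processing notes. Neither the counter nor its strand setting nor a build is given in the sources used here. The authors deposited whole-number read counts per gene for 58735 genes, without normalization, with each gene's position, length and biotype. All 58735 identifiers, positions and symbols were those of GENCODE 29, hence GRCh38.

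The counts were analysed with edgeR 4.0.16 in R 4.3.3 (TMM, quasi-likelihood F test, a joint fit of the 9 libraries, 1 mean for each group). Genes with at least 30 counts over all 9 libraries were tested (21300, with 37435 not tested), all 77 long noncoding RNAs among them. P-values were adjusted by Benjamini-Hochberg over these 21300 genes, and 0.05 was the threshold. CPM uses TMM-scaled totals, and CPM per kb divides by the deposited gene length. Neighbours are the nearest protein-coding genes on either side by gene start. Pairs of libraries of a group differed by 1.91 to 2.64 chi-square per degree of freedom, more than sampling noise. On simulated counts for p65 2CS against p65 WT, the fit recovered 67.5% of 200 genes changed 2-fold (20969 genes run, 6 false calls). It recovered 89.5% of 200 changed 4-fold (20984 run, 10 false calls). The changed genes were drawn from all genes tested, so these shares do not give the recovery for RNAs of few reads.

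Named were the 12 RNAs with the highest CPM per kb, the 6 with the smallest adjusted p between the forms in each direction (none was called higher), the 4 with most counts that were not called, those at the edges of the thresholds, the 8 neighbours with the smallest adjusted p in each direction, and RNAs that overlap genes or lie within 50 kb of each other. The RNAs, gene lists and tests were chosen with earlier results of these data known. Alternatives were DESeq2 1.42.0, limma 3.58.1 (voom), scaling by totals, 2 other filters, other thresholds of the rule, other definitions of a neighbour, and leaving out each library.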

Additional observations from a re-analysis of the deposited data

How the results depend on the processing

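No paired analysis was possible because the labels give the groups no shared replicate numbers. The count of RNAs lower with p65 2CS than with p65 WT (60 of 77) was 57 with DESeq2, 60 with libraries scaled by their totals, 59 without a filter, 61 with limma voom, 46 of the 46 kept by edgeR's expression filter, and between 56 and 60 when each library was left out. A vector threshold of 0 left 32 RNAs, of which 32 were lower, and a p65 threshold of 60 left 33, of which 33 were lower. Both the expression filter and the p65 threshold of 60 favour RNAs with many p65 WT reads. The counts of 46 of 46 and 33 of 33 follow in part from these choices and add no separate support. Restricting to RNAs that overlap no gene and follow none, a choice made after seeing the data, gave 27 of 34 lower. The neighbour counts shrink under narrower definitions, where fewer genes are counted, and the shares move too. Of 117 neighbours tested, 30.8% were higher with p65 WT than with vector and 16.2% lower. These shares were 34.0% and 10.0% of 50 within 100 kb, and 32.3% and 12.9% of 62 nearer neighbours. With p65 2CS against p65 WT, 9.4% were higher and 34.2% lower. Within 100 kb these were 6.0% and 36.0%, and 11.3% and 32.3% for the nearer neighbour. Neighbours higher with p65 WT than with vector (36) numbered 17 within 100 kb, 20 with the nearer neighbour only and 17 beside RNAs that overlap and follow no gene. Those lower (19) numbered 5, 8 and 9 under these definitions, 9 with DESeq2, 10 without a filter, and 9 to 20 with each library left out, for which the cause was not tested. With p65 2CS against vector, 22 higher became 12 within 100 kb and 13 beside such RNAs, and 20 lower became 9, 10 and 10. With p65 2CS against p65 WT, 11 higher became 3, 7 and 5, as well as 7 with DESeq2 and 5 to 11 with each library left out (5 without p65 WT replicate 5, 7 without p65 2CS replicate 7), and 40 lower became 18, 20 and 22. AC110597.1, whose main log2 difference between the forms was -0.13, took the other sign with limma voom (0.26), without p65 WT replicate 4 (0.93) and without p65 2CS replicate 9 (0.13), ran from -0.64 to 0.93 over the fits that leave out a library, and was called in none of these. Scaling by totals moved the median of all genes by at most 0.04 log2 units in size (-0.04 for p65 WT against vector). RNAs of few reads set the limit of precision: 18 of the 77 had 1 to 3 reads with p65 2CS and 8 had none, so for these the size of the difference is bounded only on 1 side or within wide counting intervals.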
